A study of Mus musculus with 6 samples.

Results

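The genes described here are the C-type lectins, the sialic acid binding Siglecs, the leukocyte immunoglobulin-like (Lilr) and paired immunoglobulin-like (Pilr) receptors, the CD300 receptors and the MS4A tetraspan proteins. Most are surface molecules of macrophages, dendritic cells and granulocytes. Members were taken by name, as every gene whose symbol begins with Clec and a digit, Siglec, Lilr, Pilr, Cd300 or Ms4a and a digit, pseudogenes left out, which gave 67 of the 26754 genes in the files. There were 29 Clec, 14 Ms4a, 12 Cd300, 6 Siglec, 3 Lilr and 3 Pilr genes. Poly-A RNA came from cells held on magnetic beads against CD8a out of subcutaneous tumours of B16, a mouse melanoma line. The hosts were female C57BL/6J mice, 6 to 8 weeks old, that had received 1000000 B16 cells, and no other treatment is named. The groups are day 7 and day 14 after implantation, with 3 libraries each. The labels do not say whether libraries come from separate or pooled animals, so every p-value below measures only the spread between these samples, which may be technical.

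The libraries held 6523019 to 9313078 reads in genes on day 7 and 11385106 to 13316522 on day 14. Read numbers of day 7 replicates 1 and 2 differed by little more than sampling allows: the chi-square per gene had a median of 1.10, where 1 stands for sampling alone. Replicate 3 differed from them with medians of 40.8 and 44.5, and the day 14 pairs lay at 4.05 to 4.43. Replicates 1 and 2 were therefore counted as 1 sample, which left n = 2 on day 7 and n = 3 on day 14. The RNA held transcripts of other cells besides the labelled CD8+ T cells, given here as CPM, reads scaled to a library of 1000000. The 12 T cell marker genes summed to 1003 to 1175 CPM on day 7 and 305 to 326 on day 14, with 7 of 10 tested called lower. All 15 macrophage and monocyte markers had reads on both days, Cd14 alone being at 0 in a library (day 7 replicate 3), with sums of 771 to 1023 CPM on day 7 and 1368 to 1445 on day 14. The 7 melanocyte markers summed to 13350 to 14076 and 24170 to 26496 CPM, with 3 of 7 tested called higher. In such mixed RNA, fewer cells of a type and less RNA per cell cannot be told apart.

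C-type lectins such as Dectin-1 and Mincle bind sugars and lipids of microbes or components of dying cells, and signal through the kinase Syk and the adaptor CARD9, either by a tyrosine motif of their own or through the partner chains FcR-gamma and DAP12. Many Siglecs, several Lilr and CD300 receptors and PILR-alpha carry inhibitory tyrosine motifs that recruit the phosphatases SHP-1 and SHP-2, and some have a related activating receptor without that motif. MS4A proteins span the membrane several times, and the best known of them is CD20 of B cells.

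Of the 67 members, 58 had at least 1 read in some library and 9 had none. The filter, a mean of 20 CPM over the 5 samples, was passed by 14 members. Another 21 had a mean of 5 CPM or more on at least 1 day and are given without a test, and 23 lay under that. On either side of the filter stood Siglec1 at a mean of 22.1 CPM and Ms4a4b at 19.8. A member that is high on only 1 day can pass through that day alone, so counts over the 14 describe these genes and are no evidence about the families.

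Among the 14 tested members, 1 rose and none fell by limma at an adjusted p under 0.05, where 3.51% of all 6691 genes tested were called higher, 4.68% lower and 8.19% in either direction. At an unadjusted p under 0.05 limma also gave 1 higher and 0 lower, and limma-voom on the recovered reads called 2 higher and 0 lower. The median log2 fold change was 0.17 in the 14 members and 0.16 in all genes tested. The called member was Clec7a, and the intervals of the other 13 spanned 0. In all 6 libraries taken singly, 6 of the 14 were higher on day 14 without overlap and 0 lower, where 31.6% and 17.8% of all genes tested were higher and lower in that way.

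**Figure D1:**
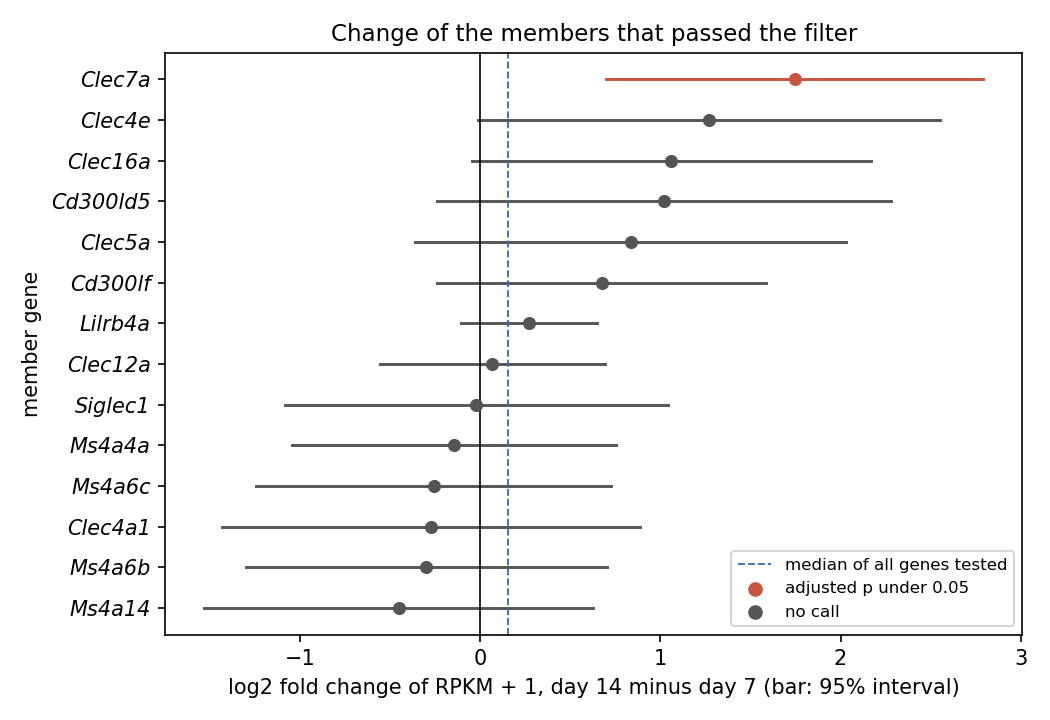
Log2 fold change of RPKM + 1, day 14 minus day 7, for the 14 members that passed the filter, with 95% intervals from limma as bars; the dashed line is the median of all 6691 genes tested (0.16). The interval of Clec7a (0.70 to 2.79) lies above 0, and those of the other 13 members cross it.

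Clec7a encodes Dectin-1, the beta-glucan receptor of macrophages and dendritic cells (chromosome 6, 129461591 to 129472779, minus strand of GRCm38). RPKM is reads per kilobase of gene in a library scaled to 1000000 reads, and on this scale Clec7a stood at 8.37, 9.28 and 16.7 on day 7 (replicates 1 to 3) and at 46.1, 42.3 and 41.5 on day 14. Every day 14 library was above every day 7 library, and day 7 replicate 3 was the highest of its day. The means were 12.8 ± 5.59 (SD, n = 2) and 43.3 ± 2.43 RPKM (SD, n = 3), a ratio of 3.39. The test gave log2 fold change 1.75, SE 0.52, limma adjusted p = 0.0263. Clec7a moved from rank 10 to rank 3 among the members by mean RPKM. The call ended without day 7 replicate 3 (log2 fold change 2.17, limma adjusted p = 0.111), with median-of-ratios scaling (1.59, adjusted p = 0.0519), with a pseudocount of 0.1 RPKM (1.82, adjusted p = 0.0619) and with no filter (1.75, adjusted p = 0.0588); over the 14 alternatives its adjusted p ran from 0.00136 to 0.111. Of 12 macrophage and monocyte markers tested, Lyz2 and Mrc1 rose and none fell, and without day 7 replicate 3 neither passed (limma adjusted p = 0.107 and 0.177). Their part in the Clec7a change was not tested.

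Other lectins that signal through Syk had lower RPKM than Clec7a on day 14. Clec4e encodes Mincle, a receptor for mycobacterial glycolipid, and lies on chromosome 6 at 123281789 to 123289870, minus strand. It was at 3.29, 3.20 and 3.15 RPKM on day 7 and 7.94, 11.5 and 8.29 on day 14. The days did not overlap and the ratio of means was 2.89, but the change did not pass the test (log2 fold change 1.27, SE 0.63, limma adjusted p = 0.241). Clec4d, which encodes the Mincle partner MCL and ends 6523 bases from the end of Clec4e on the other strand, had 0, 0 and 2 reads on day 7 and 165, 139 and 234 on day 14. In RPKM these are 0, 0 and 0.192 against 9.06, 6.92 and 10.99, and no fold is given against so few reads. Clec4n, which encodes the mannan receptor Dectin-2, was at 0, 0 and 11.7 RPKM on day 7 and 8.91, 10.1 and 9.94 on day 14, so its day 14 libraries lay inside the range of day 7. Clec5a, whose product MDL-1 pairs with DAP12, was at 5.82, 6.43 and 2.24 RPKM on day 7 and 7.82, 7.30 and 7.59 on day 14, without overlap (log2 fold change 0.84, limma adjusted p = 0.448). Most of this change rested on 1 library: without day 7 replicate 3 it was 0.27 (limma adjusted p = 0.921). The 8 neutrophil markers are genes of cells that also carry several of these lectins. They summed to 15.999 to 23.6 CPM on day 7 and 48.5 to 63.9 on day 14. On day 7, 5 of them were at 0 (Ly6g, Retnlg, Cxcr2, Mmp9 and Ngp). Ngp had no read on day 14 either, Ly6g had reads in day 14 replicate 1 alone, and S100a8 overlapped (1.23 to 5.02 and 1.93 to 3.74 CPM). Most of the day 14 sum was S100a9 (1.72 to 4.60 on day 7 and 19.1 to 25.7 on day 14) and Csf3r (9.56 to 17.8 and 22.4 to 26.3). Csf3r, the only one tested, gave no call (limma adjusted p = 0.591). The part of these markers was not tested.

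**Figure D2:**
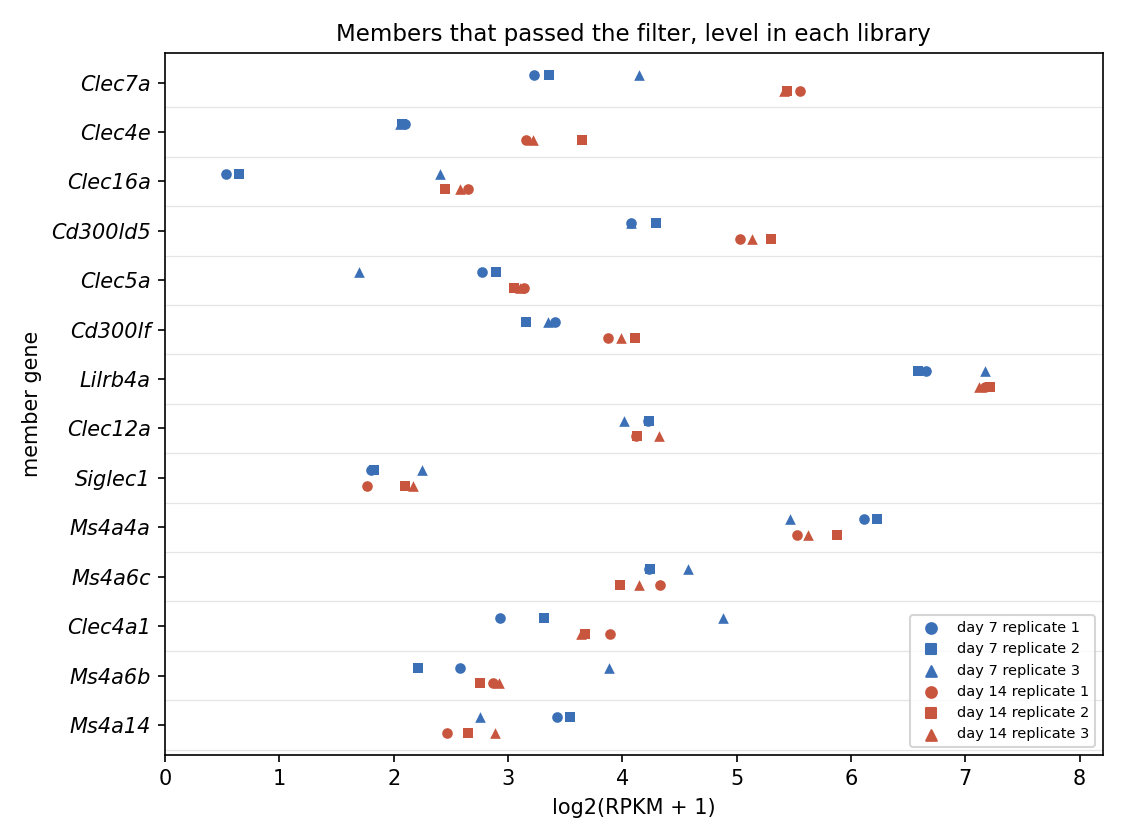
Level of the 14 tested members in each library as log2(RPKM + 1), by day and replicate. The day 14 libraries lie above all day 7 libraries for Clec7a, Clec4e, Clec16a, Cd300ld5, Clec5a and Cd300lf, and the days overlap for the other 8.

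The bases before the start of transcription of 5 lectins are shown because Clec7a, Clec4e, Clec4d and Clec5a stood higher on day 14 in every library while Clec2i stood lower. Each line gives the 250 bases upstream of the RefSeq start on GRCm38.p6, 5' to 3' on the strand of the gene. Capitals mark GAGGAA on either strand, the core of the motif of PU.1, a transcription factor of myeloid cells.
Clec7a (chr6:129472780-129473029, minus strand): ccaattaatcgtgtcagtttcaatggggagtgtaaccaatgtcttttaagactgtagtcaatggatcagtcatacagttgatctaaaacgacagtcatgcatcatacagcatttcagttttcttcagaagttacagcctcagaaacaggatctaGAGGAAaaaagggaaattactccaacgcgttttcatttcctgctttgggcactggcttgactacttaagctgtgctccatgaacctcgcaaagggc
Clec4e (chr6:123289872-123290121, minus strand): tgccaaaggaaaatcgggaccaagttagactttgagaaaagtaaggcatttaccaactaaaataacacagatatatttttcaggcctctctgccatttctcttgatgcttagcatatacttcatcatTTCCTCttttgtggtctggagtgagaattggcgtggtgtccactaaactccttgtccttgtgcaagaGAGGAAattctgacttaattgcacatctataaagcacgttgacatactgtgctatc
Clec4d (chr6:123261857-123262106, plus strand): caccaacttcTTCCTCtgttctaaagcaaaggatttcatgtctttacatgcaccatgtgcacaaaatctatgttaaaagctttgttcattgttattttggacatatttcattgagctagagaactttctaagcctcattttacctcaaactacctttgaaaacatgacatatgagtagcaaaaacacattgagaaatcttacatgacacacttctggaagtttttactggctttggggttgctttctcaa
Clec5a (chr6:40585806-40586055, minus strand): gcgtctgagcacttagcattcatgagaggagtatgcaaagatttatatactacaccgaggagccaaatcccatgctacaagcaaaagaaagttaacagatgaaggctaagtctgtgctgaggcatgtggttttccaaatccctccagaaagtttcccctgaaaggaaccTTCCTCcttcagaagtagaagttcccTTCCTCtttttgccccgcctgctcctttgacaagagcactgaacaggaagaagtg
Clec2i (chr6:128887337-128887586, plus strand): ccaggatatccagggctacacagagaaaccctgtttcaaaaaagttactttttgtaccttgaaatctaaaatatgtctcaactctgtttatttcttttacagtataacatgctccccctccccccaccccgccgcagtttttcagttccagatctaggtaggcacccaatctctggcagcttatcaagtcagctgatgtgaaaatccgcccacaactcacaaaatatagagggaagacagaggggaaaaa
The Clec7a window held 1 match, Clec4e and Clec5a held 2 each, Clec4d held 1 and Clec2i none. Clec2i does not stand for the lower members: of the others, not shown, Lilra6 held 3 matches and Ms4a4b and Ms4a4c 1 each. RefSeq gave such a window for 54 members, and 29 of them (53.7%) held the motif, against 23.25% of the 32851 windows in the table. For each member only the window nearest to the 5' end of its gene model was taken, up to 16262 bases away (Clec4a2). All windows in the table were counted without such a choice, so the shares are not fully alike. Among members with 5 CPM or more on some day, it was in 9 of 9 windows of genes higher on day 14 without overlap, 3 of 4 of those lower without overlap and 7 of 16 of the others. The 11 genes higher in this way include Ms4a6d and Clec10a, which had no window. Cd300ld4 and Cd300ld5, which share most of their transcript stretches, each gave a window. All 9 windows lay within 79 bases of the 5' end, while among the others Ms4a6b, Clec12a and Clec4a2 lay 2047, 7553 and 16262 bases away. The sets were formed from the measured levels and differ in these ways, so these counts are a description with no test. The AP-1 motif TGANTCA was in 11.11% of member windows and 6.749% of all, and the C/EBP motif TTGCNNAA in 20.37% and 9.564%. The IRF motif, taken as GAAA repeated after 2 free bases, was in 11.11% and 2.977%, each motif being sought on both strands.

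Clec12a and the DCIR lectins overlapped between the days. Clec12a encodes MICL, an inhibitory receptor for uric acid crystals, and was at 17.7, 17.8 and 15.1 RPKM on day 7 and 16.4, 16.5 and 19.02 on day 14. The test gave no call (log2 fold change 0.069, 95% interval -0.56 to 0.70, limma adjusted p = 0.931). Clec4a1, of the DCIR subfamily, was at 6.60, 8.96 and 28.4 RPKM on day 7 and 13.9, 11.8 and 11.4 on day 14, where day 7 replicate 3 was above and replicates 1 and 2 below all of day 14 (log2 fold change -0.27, limma adjusted p = 0.838). Its neighbours Clec4a2, the inhibitory receptor DCIR, and Clec4a3 were under the filter. Clec4a2 spanned 4.46 to 5.87 RPKM on day 7 and 4.18 to 6.36 on day 14, and Clec4a3 spanned 2.99 to 18.7 and 7.58 to 11.1. Clec10a, a galactose-type lectin of macrophages and dendritic cells, was at 0, 0 and 1.27 RPKM on day 7 and 1.39, 2.77 and 3.63 on day 14, with 1 day 7 library alone above 0. Clec16a carries the name but encodes a regulator of autophagy, and was at 0.450, 0.565 and 4.29 RPKM on day 7 and 5.29, 4.45 and 4.96 on day 14. Day 7 replicate 3 was close to day 14 and replicates 1 and 2 far under it (log2 fold change 1.06, limma adjusted p = 0.264; without day 7 replicate 3 it was 1.97).

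The Lilr family was led by Lilrb4a, which encodes the inhibitory receptor gp49B (chromosome 10, 51480679 to 51496613, plus strand) and had the highest RPKM of all members on both days. It was at 99.8, 95.2 and 143 RPKM on day 7 and 143, 148 and 138 on day 14. Day 7 replicate 3 stood inside the day 14 range (log2 fold change 0.27, 95% interval -0.10 to 0.65, limma adjusted p = 0.427; without day 7 replicate 3 it was 0.55). Of the 150-base stretches of its annotated transcripts, 29.3% also occur in Gm49339 and 3.72% in Lilr4b, so its reads may be shared with these genes. Lilra6 moved the other way, at 11.4, 9.79 and 2.51 RPKM on day 7 and 0.691, 2.24 and 1.90 on day 14. The days did not overlap, but day 7 replicate 3 was close to day 14. Lilra6 shares 3.87% of its stretches with Pirb and 4.29% with Gm14548, so its level is uncertain too. Lilra5 reached at most 0.214 RPKM, with no read on day 7.

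The inhibitory receptor gene Pilra spanned 1.09 to 7.30 RPKM on day 7 and 4.89 to 8.12 on day 14 and so overlapped. Its activating counterparts Pilrb1 and Pilrb2 reached at most 1.66 and 1.25 RPKM in any library. Of the exon bases of Pilra, 15.2% overlap Zcwpw1 on the opposite strand, and reads of the genes cannot be told apart unless counting used the strand.

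Among CD300 receptors, 4 of the 9 with 5 CPM or more on some day were higher on day 14 without overlap and none lower. Over all 6 families this held for 11 of 35 such members (31.4%) higher and 4 (11.4%) lower, where 30.2% and 15.7% of the 11898 genes at that level were higher and lower in the same way. The share of higher members is thus near that of all genes. Cd300lf, an inhibitory receptor of myeloid cells, was at 9.60, 7.92 and 9.17 RPKM on day 7 and 13.7, 16.3 and 14.8 on day 14 (log2 fold change 0.67, SE 0.45, limma adjusted p = 0.416). Cd300a, also inhibitory, was at 3.95, 4.15 and 1.94 RPKM on day 7 and 4.60, 4.17 and 4.69 on day 14, so that replicate 2 of day 7 and replicate 2 of day 14 almost met. Cd300ld5 was at 15.9, 18.7 and 15.8 RPKM on day 7 and 31.5, 38.5 and 34.02 on day 14 (log2 fold change 1.02, SE 0.62, limma adjusted p = 0.362). Cd300ld4 was at 5.30, 3.53 and 2.16 RPKM on day 7 and 10.4, 8.41 and 12.2 on day 14, and like Cd300ld5 it did not overlap between the days. Cd300ld3, in the same row of copies, did overlap, at 8.54 to 32.03 and 13.2 to 28.3 RPKM. These 3 genes share 58.18% to 79.52% of their 150-base stretches, so how reads were split among them is uncertain.

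The activating CD300 genes showed how far apart the day 7 libraries stood. Cd300ld, which encodes CLM-5, was at 14.4, 12.02 and 1.16 RPKM on day 7 and 7.44, 8.19 and 7.10 on day 14. Cd300e was at 6.13, 6.27 and 0 RPKM on day 7 and 2.48, 1.91 and 4.06 on day 14, with no read in day 7 replicate 3. Cd300lb, whose product pairs with DAP12, was at 0, 0 and 4.52 RPKM on day 7 and 2.65, 2.16 and 2.34 on day 14, with day 7 reads in replicate 3 alone. Cd300c2 was likewise highest in that replicate, at 2.26, 2.53 and 26.3 RPKM on day 7 and 8.27, 7.12 and 10.9 on day 14. Of the 35 members with 5 CPM or more on some day, 14 were more than 2 times higher in day 7 replicate 3 than in the mean of replicates 1 and 2, and 9 were less than 1/2 of it. On day 14 the highest library exceeded the lowest by more than 2 times in 4 of the 35. The same counts over all genes were not made. Day 7 replicate 3 stood apart over all genes compared (chi-square medians of 40.8 and 44.5), so these counts are not shown to be particular to the members.

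**Figure D3:**
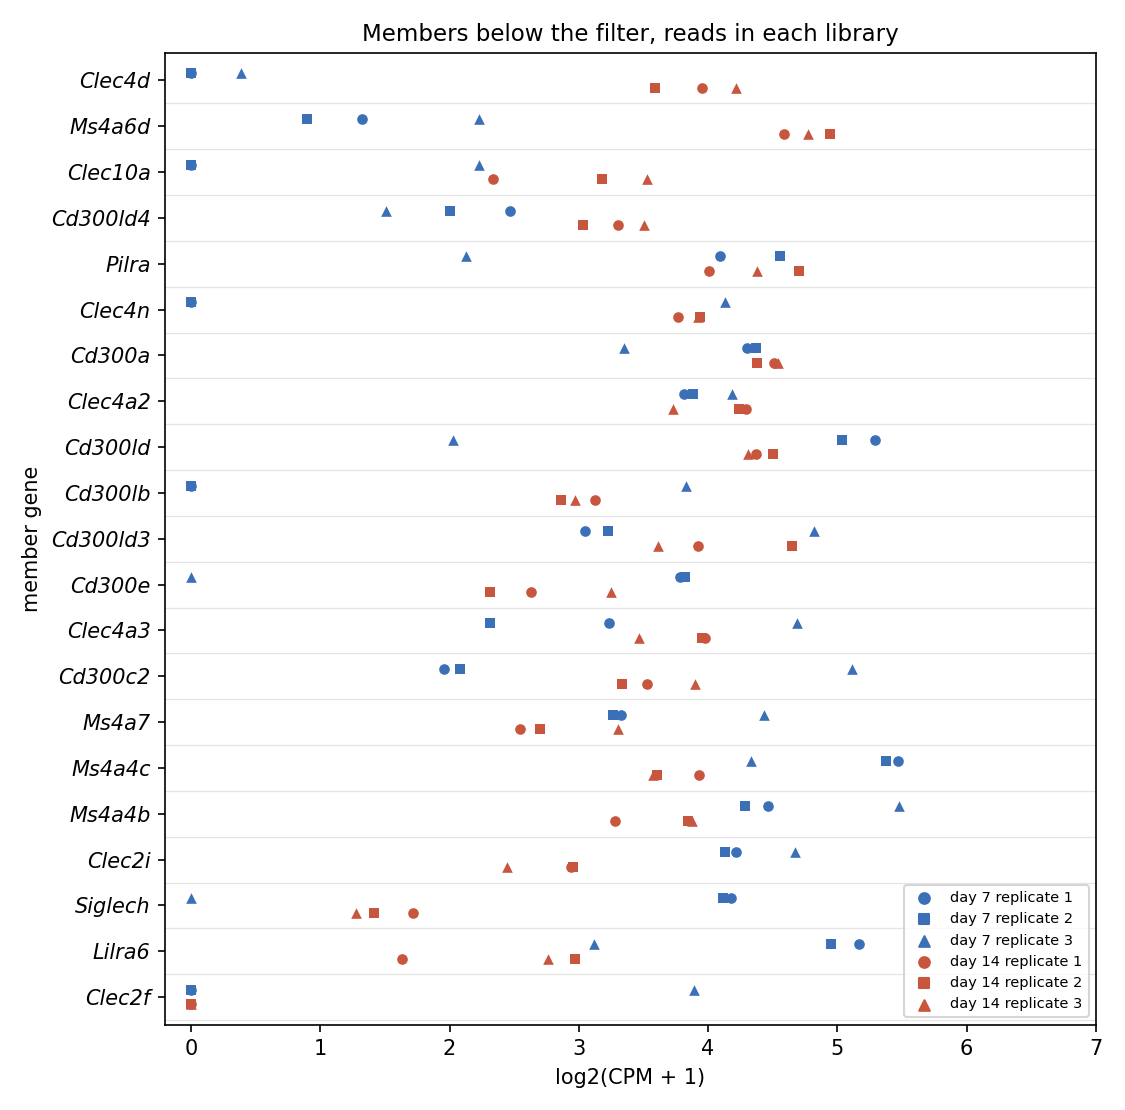
Level of the 21 members with a mean of 5 CPM or more on some day but under the filter, as log2(CPM + 1) in each library, by day and replicate. Clec4d has no or few reads in the day 7 libraries, Clec2f has reads in day 7 replicate 3 alone, and for 12 of the 21 the days overlap.

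The Ms4a genes differed in direction within 1 cluster on chromosome 19. Of the 14, 13 lie at 11067471 to 11640851, and Ms4a15, which had no read, lies beside them at 10978307 to 10993250. Ms4a6d was at 0.868, 0.495 and 2.12 RPKM on day 7 and 13.3, 17.1 and 15.2 on day 14, a ratio of means of 10.9, and of 22.3 without day 7 replicate 3. It had 12, 8 and 24 reads on day 7 and 263, 373 and 351 on day 14, and stood under the filter. Ms4a4c was lower on day 14 without overlap, at 24.8, 23.2 and 10.9 RPKM on day 7 and 8.13, 6.37 and 6.22 on day 14. Ms4a4b, known from T cells, was also lower without overlap, at 3.997, 3.50 and 8.26 RPKM on day 7 and 1.65, 2.54 and 2.59 on day 14, and lies 123054 bases from Ms4a6d. These 3 genes were under the filter and have no test.

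Ms4a4a, a gene of macrophages, had the second highest mean RPKM of the members on both days. Its levels were 68.3, 73.98 and 43.3 RPKM on day 7 and 45.2, 57.9 and 48.3 on day 14, and the days overlapped (log2 fold change -0.14, limma adjusted p = 0.897; without day 7 replicate 3 it was -0.49). Ms4a6c overlapped at 17.8 to 22.9 and 14.8 to 19.1 RPKM (log2 fold change -0.26, limma adjusted p = 0.816; without day 7 replicate 3 it was -0.087), and Ms4a6b at 3.64 to 13.7 and 5.75 to 6.56 (log2 fold change -0.30, limma adjusted p = 0.787). Ms4a14 was at 9.75, 10.7 and 5.73 RPKM on day 7 and 4.52, 5.29 and 6.39 on day 14, where day 14 replicate 3 was above day 7 replicate 3 (log2 fold change -0.45, limma adjusted p = 0.681; without day 7 replicate 3 it was -0.82). Ms4a7, another macrophage gene, spanned 1.93 to 4.61 and 1.08 to 1.99 RPKM. Of the exon bases of Ms4a6c, 53.1% overlap BE692007 on the opposite strand, so its level is uncertain.

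Of 7 members known from lymphocytes, Clec2i, Ms4a4b, Ms4a4c and Siglecg were lower on day 14 without overlap, and Clec2d, Ms4a1 and Ms4a6b overlapped. Of the 4 with 5 CPM or more on some day, 3 were lower, where 15.7% of all genes at that level were. Ms4a6b, the only one tested, gave no call. The list was chosen with earlier results of these data known, so this count is a description and no evidence about lymphocyte genes. Clec2i, which encodes a ligand of NK cell receptors, was at 5.65, 5.32 and 7.89 RPKM on day 7 and 2.15, 2.18 and 1.42 on day 14, without overlap and with a ratio of means, day 7 to day 14, of 3.49. Clec2d, the gene of the ligand of the inhibitory NK receptor NKR-P1B, overlapped at 4.76, 5.31 and 1.77 RPKM on day 7 and 1.67, 3.28 and 2.48 on day 14. The 7 NK markers summed to 239.7 to 323 CPM on day 7 and 40.7 to 43.03 on day 14, and 4 of 4 tested fell. Klrc2 alone among them was at 0 in any library, in day 7 replicates 1 and 2. Dividing by the summed RPKM of the 12 T cell genes raised nearly all genes alike (median log2 fold change 1.89 over the 6691 tested), so the sign of a member on that scale says nothing particular about it. The part of T cell and NK cell RNA in these levels was not tested.

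Siglec1, the sialoadhesin CD169 of macrophages, overlapped at 2.49, 2.56 and 3.76 RPKM on day 7 and 2.41, 3.29 and 3.50 on day 14 (log2 fold change -0.020, 95% interval -1.08 to 1.04, limma adjusted p = 0.986). Siglech, a marker of plasmacytoid dendritic cells, was at 5.04, 4.82 and 0 RPKM on day 7 and 0.675, 0.494 and 0.422 on day 14, with no read in day 7 replicate 3. The 6 other plasmacytoid markers summed to 122 to 147 and 86.7 to 104 CPM, most of it the interferon-induced gene Bst2 (102 to 125 and 54.7 to 68.6). Tcf4 stood at 13.6 to 20.5 and 27.1 to 31.4 CPM, without overlap, but gave no call (log2 fold change 0.35, limma adjusted p = 0.688). Cox6a2 stood at 0 to 8.16 and 0 to 0.527 CPM, and Ly6d, Klk1 and Spib stayed at or under 2.39. Their part in the Siglech levels was not tested. Siglece, an inhibitory Siglec of neutrophils and macrophages, had no read on day 7 and 1.62, 0.861 and 2.76 RPKM on day 14. Siglecg spanned 0.268 to 0.893 RPKM on day 7 and 0.0663 to 0.183 on day 14, and Siglec15 had no read in any library.

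Several members that mark other cell types were at or near 0. Clec9a, the receptor for filamentous actin that marks type 1 dendritic cells, had day 7 reads in replicate 3 alone, at 2.61 RPKM, against 0.480 to 1.25 on day 14. The 7 other markers of these cells summed to 455 to 493 and 316 to 352 CPM, with Xcr1 at 0 in day 7 replicate 3. Of the 3 tested, Irf8 alone was called, and lower (209 to 236 and 89.1 to 98.9 CPM, limma adjusted p = 0.000153). Batf3, Wdfy4 and Itgae were also lower without overlap, while Cadm1 was higher (98.1 to 147 and 162 to 182 CPM), and Xcr1 and Tlr3 overlapped. The part of these markers in the Clec9a levels was not tested. The B cell gene Ms4a1, of CD20, reached 0.942 RPKM in day 7 replicate 3 and at most 0.340 on day 14. Ms4a2, of mast cells and basophils, and Siglecf, of eosinophils, had no read on day 7 and at most 0.113 and 0.399 RPKM on day 14. Clec1b, of platelets, and Clec14a, of endothelium, reached at most 0.177 and 0.132 RPKM. In all, 13 members had reads on day 14 and none on day 7, and 3 the reverse, namely Clec2f, Clec4g and Clec12b, with reads in day 7 replicate 3 alone. Clec2f, a relative of Clec2i, stood at 21 RPKM there, and Clec4g and Clec12b at 1.18 and 0.379. Cd300ld2 and Clec4b1 had no read on day 7 and 2.68 to 5.90 and 2.11 to 4.67 RPKM on day 14. Cd300c, Cd300lg, Clec1a, Clec3b, Clec4f, Ms4a4d and Ms4a8a stayed at or under 0.748 RPKM in every library. The 9 members with no read were Clec11a, Clec18a, Clec2e, Clec2g, Clec4a4, Clec4b2, Ms4a3, Ms4a15 and Siglec15. More genes were detected on day 14 over the whole series as well. Of all 26754 genes, 13133 to 13806 had a read in a day 7 library and 18318 to 19053 in a day 14 library. For the 67 members these numbers were 34 to 42 and 47 to 53, so the 13 and 3 are no result particular to the members. The day 14 libraries were deeper, and the part of depth in these counts was not tested.

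Summed over each family, the Clec genes had 218, 223 and 348 CPM on day 7 and 426, 429 and 425 on day 14, and the Cd300 genes 147, 136 and 149 and 189, 216 and 202. Both sums were higher on day 14 without overlap. The Ms4a sum was lower without overlap, at 231, 227 and 261 CPM against 175, 187 and 193. The Lilr sum, at 285 to 392 and 376 to 404 CPM, the Pilr sum, at 8.74 to 23.8 and 19.8 to 29.5, and the Siglec sum, at 31.1 to 37.6 and 23.4 to 32.6, overlapped. Clec7a alone held 22.1, 24.5 and 44.2 CPM of the Clec sum on day 7 and 122, 112 and 109.6 on day 14. Clec16a, which only carries the name, held 3.76, 4.72 and 35.9 CPM on day 7 and 44.3, 37.3 and 41.5 on day 14. Sums without these genes were not made, so the higher Clec sum is not shown for the other lectins. The family sums are a description with no test.

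**Figure D4:**
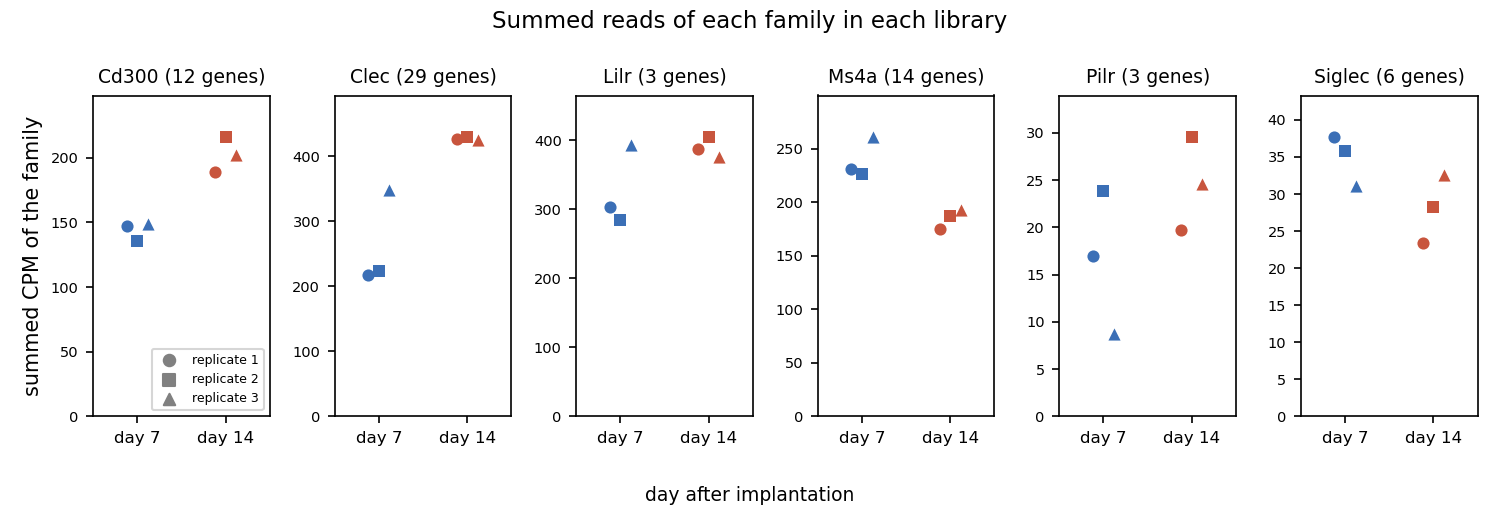
Summed CPM of the genes of each family in each library, by day and replicate, on axes that start at 0. The Clec and Cd300 sums are higher and the Ms4a sum lower on day 14 in every library, and the other 3 families overlap.

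The genes through which these receptors signal were taken from lists of known pathway members, chosen with earlier results of these data known. Counts called over these lists are a description and no evidence about signalling. Of all 6691 genes tested, 3.51% were called higher and 4.68% lower. Among adaptors and kinases 8 of 14 passed the filter, and of these Plcg2 and Vav1 fell and none rose by limma, with 0 higher at an unadjusted p under 0.05 and 0 by limma-voom. The median log2 fold change of the 8 was -0.29. Plcg2, a phospholipase downstream of Syk, was at 24.9, 23.4 and 37.5 RPKM on day 7 and 13.6, 17.4 and 15.1 on day 14 (limma adjusted p = 0.0337). Vav1, an exchange factor that T cells also use, was at 44.3, 44.1 and 27.1 RPKM on day 7 and 19.3, 17.6 and 17.98 on day 14 (limma adjusted p = 0.039). Syk itself gave no call at 8.37 to 10.6 and 9.74 to 10.6 RPKM, nor did the FcR-gamma gene Fcer1g at 31.2 to 32.3 and 24.1 to 29.6. Card9 and the DAP12 gene Tyrobp were under the filter. The call of Plcg2 ended without day 7 replicate 3, without day 14 replicate 1 and with no filter (limma adjusted p = 0.527, 0.0508 and 0.129). That of Vav1 ended without day 14 replicate 2 or 3, without weights and with no filter (limma adjusted p = 0.0659, 0.0525, 0.0519 and 0.0867).

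Of the 3 phosphatases of inhibitory receptors, all tested, Ptpn6 fell and none rose, where 4.68% of all genes tested fell and 3.51% rose. Ptpn6, the gene of SHP-1, which T cells also express, was at 195, 199.8 and 161 RPKM on day 7 and 89.2, 84.8 and 86.2 on day 14 (log2 fold change -1.03, SE 0.15, limma adjusted p = 4.06e-06), and its call held in all 14 alternatives. Ptpn11, the gene of SHP-2, gave no call by limma or limma-voom (adjusted p = 0.663 and 0.276). Inpp5d, the gene of SHIP-1, gave none by limma (log2 fold change -0.74, adjusted p = 0.152) but was called lower by limma-voom (-0.78, adjusted p = 0.0247). At an unadjusted p under 0.05 limma gave 2 of the 3 as lower and 0 higher, and the median of the 3 was -0.74. Among 13 NF-kB and cytokine genes that lectin signalling can induce, 8 were tested. Of these Il1b and Cxcl2 rose, where 3.51% of all genes tested did. None fell by limma, with 0 lower at an unadjusted p under 0.05 and 0 by limma-voom, and the median of the 8 was -0.13. Il1b, of interleukin 1 beta, was at 68.2, 73.8 and 56.6 RPKM on day 7 and 117, 137 and 121 on day 14 (limma adjusted p = 0.0274), and Cxcl2, a neutrophil chemokine, at 10.7, 7.89 and 25.1 RPKM on day 7 and 52.7, 57.5 and 55.3 on day 14 (adjusted p = 0.0214 by limma). The call of Il1b ended without day 7 replicate 3, with no filter and with median-of-ratios scaling (limma adjusted p = 0.283, 0.129 and 0.0837), and that of Cxcl2 without day 7 replicate 3, with no filter and with the smaller pseudocount (0.0652, 0.0697 and 0.0527). Of 15 genes that make, transfer or remove the sialic acids bound by Siglecs, 9 were tested and none was called by limma, with a median of 0.42. At an unadjusted p under 0.05 there were 2 higher and 1 lower, and limma-voom called 1 of each.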

How the data were processed

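The authors deposited RPKM, 1 table per library, which are reads of a gene per kilobase of its length and 1000000 assigned reads. Trimmomatic 0.36, featureCounts, Subread 1.5.1 and GRCm38 are listed in the submitters' processing notes. Aligner, strand setting and handling of molecular identifiers were not given in the sources used here. RPKM times length returned whole reads (largest deviation 4.1e-05), from which CPM were computed. Most low read numbers were even (75.6% to 87.7%), so 2 reads stand for 1 fragment.

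Members and lists were chosen with earlier results of these data known. Day 7 replicates 1 and 2 were averaged and counted as 1 sample. With limma 3.58.1 in R 4.3.3, log2(RPKM + 1) was fitted for genes whose mean over the 5 samples reached 20 CPM. Weights came from loess trends (span 0.3, floor 0.005) of variance on mean log2(CPM + 1) within a day. P-values were Benjamini-Hochberg adjusted over all genes tested, and the fit was checked on simulated data. Named are the members that passed the filter or reached 5 CPM on some day, rarer ones that mark a cell type, and called genes of the other lists. Lists of members by signalling role were described gene by gene, and a planned search of protein motifs was not made. Upstream windows are from RefSeq (GRCm38.p6), and transcript stretches from GENCODE M21. Alternatives were no weights, a filter of 50 CPM or none, a pseudocount of 0.1 RPKM, median-of-ratios scaling, limma-voom on recovered reads, 6 libraries singly, a replicate block and leaving out each library. The ratio of means without day 7 replicate 3 was added after the data were seen. With day 7 replicate 3 left out, the lone day 7 sample was assumed to vary like the others.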

Additional observations from a re-analysis of the deposited data

How the results depend on the processing

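The number of members called higher was 1. It was 3 without precision weights (Cd300ld5, Clec4e and Clec7a), 4 with no filter beyond 1 read (Cd300ld2, Clec4b1, Clec4d and Siglece), 0 with a pseudocount of 0.1 RPKM, 0 with median-of-ratios scaling, 2 by limma-voom on the recovered reads (Cd300lf and Clec7a) and 3 with 6 libraries counted singly (Clec16a, Clec4e and Clec7a); the cause was not tested. With the replicate block on 6 libraries it was 2 (Clec4e and Clec7a), and the deviations of same-numbered libraries correlated at -0.014, -0.015 and -0.034, so the numbers do not pair the libraries. Of the members called with no filter, Cd300ld2, Clec4b1 and Siglece had no read on day 7 and Clec4d had 2. Those calls rest on day 14 reads against a floor. Leaving out 1 library other than day 7 replicate 3 gave 1 each time, Clec7a. Without day 7 replicate 3, which leaves 1 day 7 sample, Clec7a was not called. Ms4a6d then passed the filter only through day 14 (1.51 and 0.859 CPM in day 7 replicates 1 and 2, 23.1 to 29.7 on day 14). The number called lower was 0 in these 14 alternatives. Over all genes, 235 were higher and 313 lower, against 601 and 410 without weights, 1346 and 235 without the filter, 130 and 423 with median-of-ratios scaling, 736 and 538 by limma-voom, 1050 and 667 with libraries counted singly, 766 and 573 with the block and 156 and 220 without day 7 replicate 3. Per T cell transcript, all 14 tested members and 6347 of the 6691 genes were called higher. Median-of-ratios scaling moved the median over all genes from 0.16 to 0.012 (log2). Directions turned in members that gave no call. The log2 fold change of Clec12a was -0.081 with median-of-ratios scaling and -0.038 without day 7 replicate 3, the lowest value of leaving out 1 library (highest 0.10). Clec4a1 was at 0.027 with libraries counted singly and with the replicate block. Ms4a6b ran from -0.38 to 0.44 when 1 library was left out and was at 1.35 per T cell transcript. Siglec1 was at 0.078 by limma-voom, at 0.052 with libraries counted singly and with the replicate block, and ran from -0.099 to 0.20 when 1 library was left out.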
